A study of Mus musculus with 6 samples.

Results

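The chemokines examined here were 10 genes that macrophages are known to transcribe, the CC chemokines Ccl2, Ccl3, Ccl4, Ccl5, Ccl6, Ccl7, Ccl9 and Ccl12 and the CXC chemokines Cxcl1 and Cxcl2. They were chosen by symbol, and all 10 were found among the 35284 genes whose values could be read. Each had an FPKM above 0 in every library. FPKM is the number of sequenced fragments of a gene divided by gene length and library size, so that levels can be compared between genes.

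RNA was sequenced from murine bone marrow-derived macrophages (BMDMs) of C57BL/6 mice. These cells had been grown from femoral marrow for 7 days with 10 ng per ml of macrophage colony-stimulating factor (M-CSF). The control group (Ctrl, 3 libraries) had no ZA, and the ZA group (3 libraries) was taken 12 h after stimulation with ZA, the bisphosphonate zoledronic acid, which is given against bone resorption. No genetic change was named for either group, and the ZA concentration used for these libraries was not given in the sources used here.

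Chemokines are small secreted proteins that bind G protein-coupled receptors on leukocytes and set the direction in which those cells move. Inflammatory chemokines of macrophages are grouped by receptor. CCR2 ligands call in monocytes, CCR1 ligands and their relatives call in monocytes, T cells and other leukocytes, and CXCR2 ligands call in neutrophils. Their genes lie in clusters and are known targets of NF-kB, and several of their transcripts are short-lived.

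The libraries held between 41230600 and 42155808 fragments, and a gene tested had a median of 1394 fragments per library. All 10 macrophage markers were at 23.0 FPKM or more, with Lyz2, which encodes lysozyme, between 20472 and 24669 FPKM, Csf1r, the M-CSF receptor, between 767 and 848 FPKM, and Adgre1, which encodes F4/80, between 526 and 593 FPKM. Of the 10, 9 had log2 fold changes above 0 (median 0.037), 3 of them at an unadjusted limma p under 0.05, and none passed adjustment. At that p 7.5% of all genes tested were higher. With quantile normalization 7 of the 10 were above 0. Neutrophil-lineage RNA was present at low levels. Of 10 neutrophil markers, Ly6g was at 0 in all 6 libraries, while S100a9 ran from 13.3 to 23.1 FPKM, S100a8 from 8.05 to 12.5 FPKM and Ngp from 3.32 to 5.42 FPKM. The sums of stromal, megakaryocyte and osteoclast markers fell from replicate 1 to replicate 3 in both groups, with the highest sums in Ctrl 1. The summed FPKM of 6 stromal markers was 32.8 in Ctrl 1, 25.7 in Ctrl 2 and 18.5 in Ctrl 3, against 23.8, 20.6 and 16.8 in ZA 1, 2 and 3. The sum of 5 megakaryocyte markers was likewise highest in Ctrl 1 (25.3) and lowest in ZA 3 (15.3). Genes that were highest in Ctrl 1 and lower in ZA are therefore also given without it. Nothing in the labels says that the libraries of a group came from separate cultures, so that p-values measure the spread between these libraries only, which may be technical.

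At rest, BMDMs transcribed the 10 chemokines over a wide range of levels. In Ctrl the order by mean FPKM was Ccl6, Ccl9, Ccl3, Ccl4, Ccl2, Ccl5, Ccl7, Ccl12, Cxcl1 and Cxcl2, from 225 ± 16.3 (SD, n = 3) for Ccl6 to 0.717 ± 0.0473 (SD, n = 3) for Cxcl2. The ranges of neighbours in that order did not overlap, except for Ccl2 with Ccl5 and for Cxcl1 with Cxcl2. In ZA the first 4 and Ccl7 kept their rank, Ccl5 stood before Ccl2 with ranges that overlapped, and Cxcl2, Ccl12 and Cxcl1 followed in that order, each overlapping the next. Ccl6 and Ccl9 alone made up 70.3% ± 1.56 (SD, n = 3) of the summed FPKM of the 10 genes in Ctrl and 69.5% ± 0.947 (SD, n = 3) in ZA. CXCR2 ligands made up 0.301% ± 0.0750 in Ctrl and 0.435% ± 0.0474 in ZA (SD, n = 3 each). The summed FPKM itself was 497, 477 and 474 in Ctrl 1, 2 and 3, and 466, 464 and 464 in ZA 1, 2 and 3. All 3 ZA sums were thus below the lowest Ctrl sum. Of the mean sums of 482 FPKM in Ctrl and 465 FPKM in ZA, Ccl6 alone held 225 and 204 FPKM, with groups that overlapped.

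**Figure D1:**
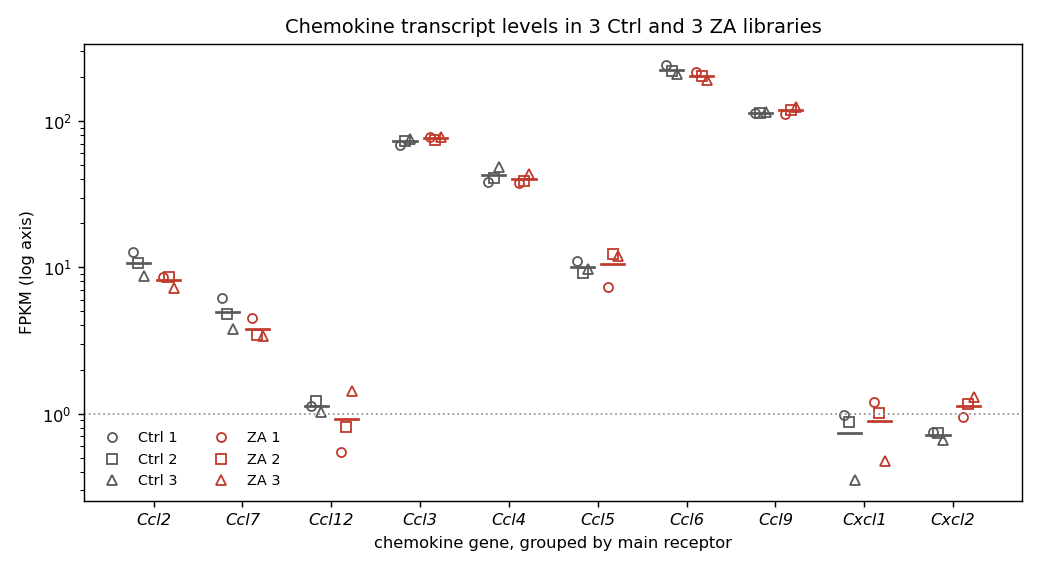
FPKM of each chemokine gene on a log axis, with 1 symbol per library (grey, Ctrl; red, ZA; circle, square and triangle for replicates 1, 2 and 3) and a bar at each group's mean. The dotted line marks an FPKM of 1, the lowest mean for a gene to be tested. Levels run from about 225 FPKM for Ccl6 to under 1 FPKM for Cxcl1 and Cxcl2 in Ctrl, and the groups are apart for Ccl2 and Cxcl2.

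The comparison asked whether ZA changed the transcription of these chemokines within 12 h. None of the 8 chemokines with a mean FPKM of at least 1 passed an adjusted p of 0.05 from limma with Benjamini-Hochberg adjustment over 9800 genes, where 0.367% of all genes passed. At an unadjusted limma p under 0.05, Ccl2 and Ccl6 were lower in ZA, 2 of 8 genes where 4.85% of all genes were, while 0 of 8 were higher, where 7.5% of all genes were. The voom fit on whole fragments gave the same 3 counts, 0 by adjusted p, 2 lower and 0 higher by unadjusted p. Of the 8, 1 (Ccl2) had all ZA libraries below all Ctrl libraries, as did 6.76% of all genes, and 0 had them all above, as did 11.4% of all genes. Of the 8 log2 fold changes, 5 were below 0 and 3 above, with a median of -0.11, while 43.1% of all genes were below 0 with a median of 0.010. Cxcl1 and Cxcl2 had means under 1 FPKM and were fitted only without the filter on low levels. Without Ctrl replicate 1 neither Ccl2 nor Ccl6 was lower at that p, nor was any other of the 8, where 4.02% of all genes were. With Ctrl 2 or ZA 2 left out Ccl2 alone was lower, where 3.71% and 4.24% of all genes were. With ZA 3 left out Ccl12 alone was lower, where 3.86% of all genes were, so that both Ccl2 and Ccl6 were lost there too. With Ctrl 3 or ZA 1 left out, Ccl2, Ccl6 and Ccl7 were all lower at that p, where 5.09% and 5.61% of all genes were. Without Ctrl 3 Ccl3 was higher, where 7.1% of all genes were, and without ZA 1 Ccl5 and Ccl9, where 8.65% were. With all libraries kept, centring each on its median left the calls of Ccl2 and Ccl6 but moved those of all genes to 5.18% higher and 6.78% lower.

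**Figure D2:**
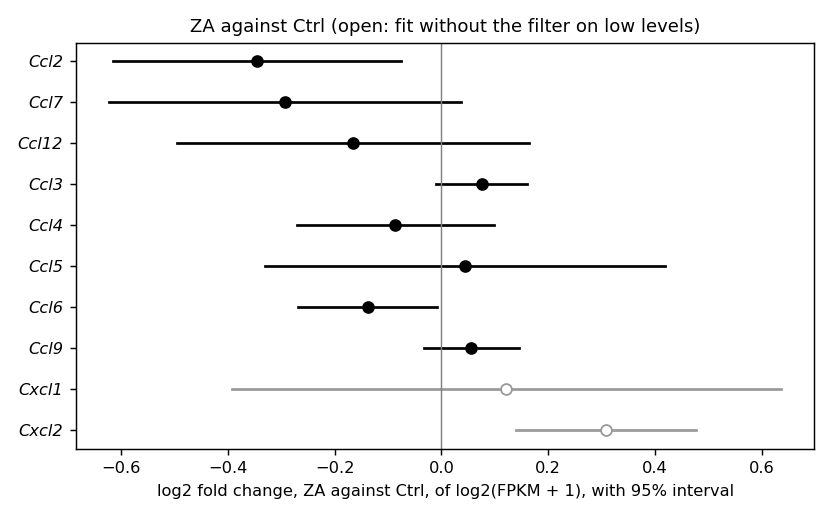
Log2 fold change of log2(FPKM + 1), ZA against Ctrl, for each chemokine, with the 95% interval from limma as a line. Filled points come from the fit over 9800 genes and open grey points, for Cxcl1 and Cxcl2, from the fit without the filter on low levels. The intervals of Ccl2, Ccl6 and Cxcl2 leave out 0 before adjustment for the number of genes.

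Among the CCR2 ligands, Ccl2, the main monocyte chemoattractant, was lower in each ZA library than in any Ctrl library. Its FPKM was 12.7, 10.7 and 8.67 in Ctrl 1, 2 and 3, and 8.64, 8.53 and 7.21 in ZA 1, 2 and 3. The groups did not overlap, but the lowest Ctrl and the highest ZA library nearly met. Ctrl averaged 10.7 ± 1.99 FPKM and ZA 8.13 ± 0.795 FPKM (SD, n = 3 each), a ratio of 0.761. On the log2(FPKM + 1) scale, which understates changes of low genes, the difference was -0.35 (SE 0.117, 95% interval -0.62 to -0.076), with an adjusted p of 0.297 from limma. An exact two-sided permutation test gave p = 0.1, the smallest that 3 against 3 libraries allow. Without Ctrl replicate 1 the log2 fold change of Ccl2 was -0.23, and the adjusted p from limma was 0.501. Without Ctrl replicate 3 they were -0.47 and 0.123. In RNA of whole cultures, fewer transcribing cells and less RNA per cell cannot be told apart.

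Ccl7, which shares CCR2 with Ccl2 and lies beside it on chromosome 11, had a similar profile over the libraries. It was at 6.17, 4.77 and 3.80 FPKM in Ctrl 1, 2 and 3, and at 4.51, 3.45 and 3.41 FPKM in ZA 1, 2 and 3. Here the groups overlapped, since ZA 1 was above Ctrl 3. The limma log2 fold change was -0.29 (SE 0.143, adjusted p = 0.456), and without Ctrl replicate 1 it was -0.14. Without Ctrl replicate 3 it was -0.43, with an adjusted p of 0.246 from limma. Within each library the ratio of Ccl2 to Ccl7 stayed between 1.91 and 2.47.

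Ccl12, a mouse CCR2 ligand of the same cluster, was close to the lowest level tested. It had 1.12, 1.21 and 1.03 FPKM in Ctrl 1, 2 and 3, and 0.543, 0.808 and 1.42 FPKM in ZA 1, 2 and 3. The ZA libraries lay both below and above all Ctrl libraries. Only 12 to 32 fragments stood behind each value, and the limma log2 fold change of -0.17 (95% interval -0.49 to 0.16, adjusted p = 0.682) allows changes in either direction. It was -0.019 without ZA replicate 1 and -0.34 without ZA replicate 3.

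Ccl2 and Ccl7 were highest in Ctrl 1 and lowest in ZA 3, and so were the summed stromal, megakaryocyte, neutrophil and osteoclast markers. In Ctrl 1 and ZA 3 the neutrophil sum was 82.3 and 63.2 FPKM, and the osteoclast sum 46.9 and 38.6 FPKM. The pattern was thus not particular to stromal markers. Dcn, which encodes the stromal proteoglycan decorin, was at 14.7, 11.8 and 9.02 FPKM in Ctrl 1, 2 and 3, and at 9.95, 9.03 and 8.05 FPKM in ZA 1, 2 and 3 (limma log2 fold change -0.34, and -0.18 without Ctrl replicate 1). Stromal cells are known to make Ccl2 and Ccl7. Of the 6 stromal markers 4 were tested and all 4 had log2 fold changes below 0. At an unadjusted limma p under 0.05, 1 of them was lower, where 4.85% of all genes were. Of those not tested, Lum had a higher mean in ZA (0.154 FPKM, against 0.112 in Ctrl) and Pdgfrb a lower one (0.632 against 0.925). None of the stromal markers was at 0 in all libraries. The summed macrophage markers ran between 25277 and 29196 FPKM in Ctrl and between 26197 and 29676 FPKM in ZA, with the lowest sum in Ctrl 1. Lyz2 alone held 20472 of the 25277 FPKM in Ctrl 1, so that this sum mostly follows that gene. The part of stromal RNA in the values of Ccl2 and Ccl7 was not tested.

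**Figure D3:**
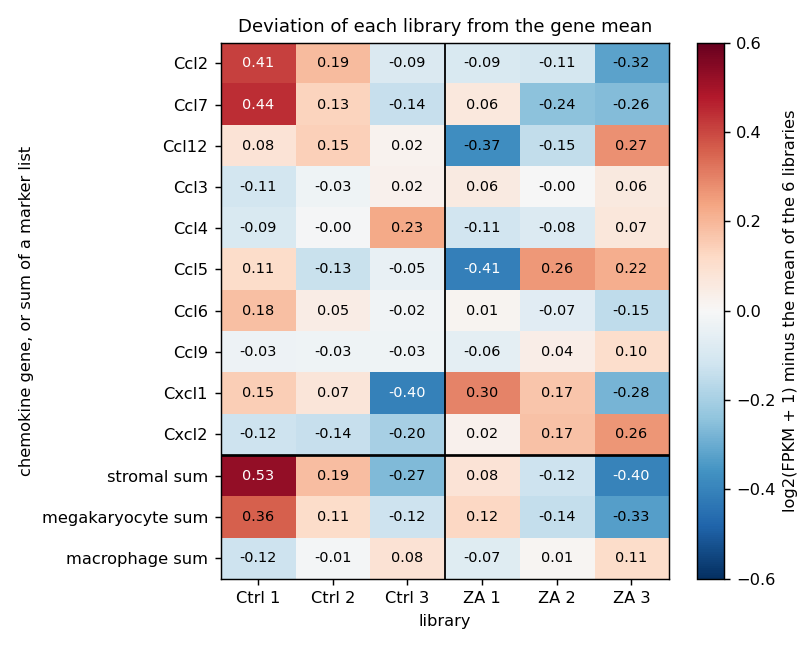
Difference of each library from the mean of the 6 libraries on the log2(FPKM + 1) scale (red, higher; blue, lower), for the 10 chemokines above the black line and for the summed stromal, megakaryocyte and macrophage markers under it. Ccl2 deviates by 0.41 in Ctrl 1 and -0.32 in ZA 3, and the stromal sum by 0.53 and -0.40 in the same libraries, while Cxcl2 is above its mean in all 3 ZA libraries. Most of the macrophage sum comes from Lyz2.

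Ccl3, Ccl4 and Ccl5, which draw monocytes and T cells, were transcribed at moderate levels, and none passed the test. Ccl3, a ligand of CCR1 that activates monocytes and neutrophils, had 68.8, 73.1 and 75.7 FPKM in Ctrl 1, 2 and 3, and 77.4, 74.3 and 77.6 FPKM in ZA 1, 2 and 3. Both ZA 1 and ZA 3 were above every Ctrl library, and ZA 2 was not. The log2 fold change was 0.076 (SE 0.0372, 95% interval -0.0098 to 0.16, adjusted p = 0.457 from limma), an interval of -0.677% to 11.8% in FPKM + 1. Without Ctrl replicate 1 it was 0.039.

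Ccl4, a close relative of Ccl3 whose gene lies next to it, was at 38.5, 41.0 and 48.3 FPKM in Ctrl 1, 2 and 3, and at 37.9, 38.8 and 43.1 FPKM in ZA 1, 2 and 3. The groups overlapped broadly, and Ctrl 3 was the highest. The limma log2 fold change was -0.086 (SE 0.0801, adjusted p = 0.708), and it was 0.0053 without Ctrl replicate 3. Ccl3 was above Ccl4 in each of the 6 libraries, by a ratio between 1.57 and 2.04.

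Ccl5, a T cell and monocyte attractant that binds CCR1 and CCR3, varied most of these 3 genes among the ZA libraries. Its FPKM was 11.1, 9.18 and 9.81 in Ctrl 1, 2 and 3, and 7.39, 12.3 and 11.99 in ZA 1, 2 and 3. ZA 1 was the lowest of the 6 libraries and ZA 2 and ZA 3 the highest. The limma log2 fold change was 0.044 (95% interval -0.33 to 0.42, adjusted p = 0.937). Its sign rested on single libraries, with 0.26 without ZA replicate 1, -0.074 without ZA replicate 2, -0.055 without ZA replicate 3 and -0.011 without Ctrl replicate 2.

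Ccl6 and Ccl9, CCR1 ligands found in rodents and made in quantity by myeloid cells, were the highest of the 10 and had log2 fold changes of opposite sign. Ccl6 was at 243, 221 and 211 FPKM in Ctrl 1, 2 and 3, and at 216, 204 and 192 FPKM in ZA 1, 2 and 3. ZA 1 lay above Ctrl 3, so that the groups overlapped. The ratio of the means was 0.908, and the limma log2 fold change was -0.14 (SE 0.0567, 95% interval -0.27 to -0.0075), with an adjusted p of 0.381. Without Ctrl replicate 1, the library with the highest Ccl6, it was -0.081 with an adjusted p of 0.633 from limma. Without Ctrl replicate 3 or ZA replicate 1 it was -0.18, with adjusted p of 0.278 and 0.223 from limma.

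Ccl9 was almost level in Ctrl, with 114.1, 114.3 and 114.5 FPKM in Ctrl 1, 2 and 3. In ZA it spread over 112, 119.9 and 125 FPKM in ZA 1, 2 and 3. ZA 1 was below all Ctrl libraries and the other two were above them. The limma log2 fold change was 0.056 (SE 0.0388, 95% interval -0.033 to 0.15, adjusted p = 0.597), and it was 0.10 without ZA replicate 1 and 0.018 without ZA replicate 3. Within a library the ratio of Ccl6 to Ccl9 was 2.13, 1.93 and 1.84 in Ctrl 1, 2 and 3, and 1.93, 1.70 and 1.53 in ZA 1, 2 and 3. The groups overlapped, with ZA 1 above Ctrl 2 and Ctrl 3.

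The CXCR2 ligands Cxcl1 and Cxcl2, neutrophil attractants that lie side by side on chromosome 5, had means under 1 FPKM over the 6 libraries. The bases before their transcription starts are shown because both genes carry the same kappa B element there, while their values over the libraries differ. Ccl9 is shown as the only other of the 6 chemokines with a promoter entry that had a match. Sequences are from RefSeq, build GRCm38.p6, read 5′ to 3′ on the gene's strand up to the base before the start, and capitals mark matches to the NF-kB consensus on either strand.
Cxcl1, chr5:90890995-90891244, plus strand: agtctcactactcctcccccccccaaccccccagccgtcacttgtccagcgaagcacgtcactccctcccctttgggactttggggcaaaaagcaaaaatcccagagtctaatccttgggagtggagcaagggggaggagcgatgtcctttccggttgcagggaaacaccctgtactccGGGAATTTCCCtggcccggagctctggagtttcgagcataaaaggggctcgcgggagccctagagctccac
Cxcl2, chr5:90903649-90903898, plus strand: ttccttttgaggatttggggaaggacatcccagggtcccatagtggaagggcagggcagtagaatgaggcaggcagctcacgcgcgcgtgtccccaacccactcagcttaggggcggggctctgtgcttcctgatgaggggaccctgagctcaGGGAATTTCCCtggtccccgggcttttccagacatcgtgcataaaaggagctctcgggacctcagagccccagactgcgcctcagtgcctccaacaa
Ccl9, chr11:83578637-83578886, minus strand: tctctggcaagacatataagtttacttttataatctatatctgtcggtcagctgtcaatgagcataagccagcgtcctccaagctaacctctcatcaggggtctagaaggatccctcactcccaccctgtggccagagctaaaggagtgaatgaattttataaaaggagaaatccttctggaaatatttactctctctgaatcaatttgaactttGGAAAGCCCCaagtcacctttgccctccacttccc

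In Cxcl1 the match GGGAATTTCC begins 71 bases before the start, and in Cxcl2 the same letters begin 97 bases before it. In both, the reverse strand holds a second match 1 base further on. Ccl9 had its match, GGAAAGCCCC as read on the gene's strand, 35 bases before the start. Thus 3 of the 6 chemokines with an entry held a match in these 250 bases, as did 7.25% of all 32851 promoter entries. Ccl3, Ccl6 and Ccl12 held none. An AP-1 match (TGANTCA) stood in Ccl9 alone, where 6.75% of all entries had one. A TATAAA box on either strand was found in Ccl9 and Ccl12, where 12.4% of all entries had one, and the interferon element GAAANNGAAA in none, where 2.98% had one. A match says only that these letters are present in the window.

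Cxcl2 was higher in every ZA library than in any Ctrl library. It had 0.753, 0.733 and 0.663 FPKM in Ctrl 1, 2 and 3, and 0.941, 1.15 and 1.29 FPKM in ZA 1, 2 and 3. These values stand for 30 to 59 fragments per library, well above the 3 fragments (0.0672 FPKM) taken as the lowest detectable amount. Ctrl averaged 0.717 ± 0.0473 FPKM and ZA 1.13 ± 0.177 FPKM (SD, n = 3 each), a ratio of 1.58. In the limma fit without the filter on low levels, over 19230 genes, the log2 fold change was 0.31 (SE 0.0680, 95% interval 0.14 to 0.48), with an unadjusted p under 0.05 and an adjusted p of 0.301. In that fit 4.82% of all genes were higher at an unadjusted p under 0.05, and in 7.39% of all genes every ZA library was above every Ctrl library. The exact two-sided permutation p was 0.1, the smallest possible. In the annotation used here, 8 of the 2359 stretches of 150 bases in Cxcl2 transcripts are also found in Cxcl3, so that single fragments may be assigned to either gene.

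Cxcl1 had another profile. It was at 0.980, 0.882 and 0.351 FPKM in Ctrl 1, 2 and 3, and at 1.19, 1.01 and 0.472 FPKM in ZA 1, 2 and 3, on 14 to 47 fragments. Replicate 3 was the lowest in both groups, and the groups overlapped. The log2 fold change without the filter on low levels was 0.12 (95% interval -0.39 to 0.64, adjusted p = 0.892 from limma). The ratio of Cxcl1 to Cxcl2 within a library ran from 0.365 in ZA 3 to 1.301 in Ctrl 1.

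For most of the chemokines, libraries of a group differed by more than counting alone would give. The coefficient of variation (CV, the SD as a percent of the mean) in Ctrl was 18.6% for Ccl2, 24.3% for Ccl7 and 7.27% for Ccl6, where counting fragments alone would give 5.28%, 7.81% and 0.862%. The median CV over all genes tested was 3.54% in Ctrl and 3.72% in ZA, and 7 of the 8 chemokines tested were above the median in each group. The exceptions were Ccl9 in Ctrl, at 0.202%, and Ccl3 in ZA, at 2.40%. For Ccl2, Ccl5, Ccl7 and Ccl12, counting alone gives a CV above the median in Ctrl (5.28%, 6.71%, 7.81% and 20%). Ccl12 in Ctrl (8.24%) and Cxcl2 in Ctrl (6.60%) varied less than the 20% and 17.6% that counting gives on average, as can happen with 3 libraries. The narrow Ctrl spread of Cxcl2 is thus below its own counting error.

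**Figure D4:**
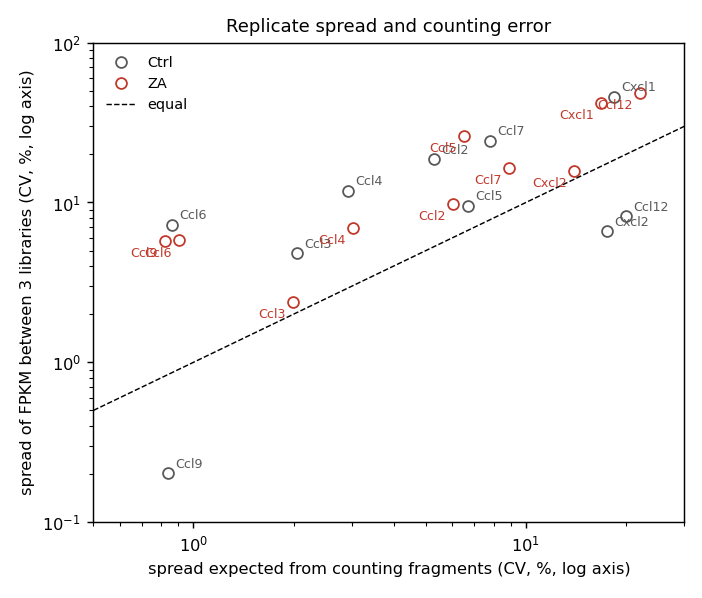
Coefficient of variation of the FPKM between the 3 libraries of a group, against the CV expected from the mean number of fragments, both in percent on log axes (grey, Ctrl; red, ZA; dashed line, equal). Most points lie above the line, and Ccl9, Ccl12 and Cxcl2 in Ctrl lie under it, at 0.202%, 8.24% and 6.60%.

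Other chemokine ligands were read beside the 10 genes. Of 28 listed, 27 were found, 7 of these were at 0 in all libraries, and 8 were tested. None passed the adjusted limma test. At an unadjusted p under 0.05, 3 of the 8 were lower and 1 higher, where 4.85% and 7.5% of all genes were. Cxcl16, the scavenger receptor ligand of CXCR6, was the highest, with 139.5, 138 and 130.2 FPKM in Ctrl 1, 2 and 3, and 141, 139.7 and 146 FPKM in ZA 1, 2 and 3 (adjusted p = 0.453 from limma). Ccl8, whose gene lies next to Ccl12, had 2.11, 1.13 and 0.984 FPKM in Ctrl 1, 2 and 3, and 1.99, 2.31 and 2.60 FPKM in ZA 1, 2 and 3. Its limma log2 fold change was 0.48 (SE 0.157, adjusted p = 0.280), and Ctrl 1 lay within the ZA range. It was thus above 0 where those of its cluster neighbours Ccl2, Ccl7 and Ccl12 were below 0.

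The lower ligands were Pf4 and Ppbp, chemokines of platelets and megakaryocytes, and Cxcl12, a stromal chemokine. Pf4 was at 62.2, 58.4 and 57.8 FPKM in Ctrl 1, 2 and 3, and at 55.4, 54.1 and 47.0 FPKM in ZA 1, 2 and 3 (limma log2 fold change -0.19, adjusted p = 0.259). Ppbp had a mean of 71.3 ± 7.54 FPKM in Ctrl and 59.2 ± 7.01 FPKM in ZA (SD, n = 3 each, adjusted p = 0.314 from limma). Cxcl12 was at 1.38 ± 0.459 FPKM in Ctrl and 0.843 ± 0.187 FPKM in ZA (SD, n = 3 each, adjusted p = 0.341 from limma). Without Ctrl replicate 1 the limma log2 fold changes were -0.16 for Pf4, -0.18 for Ppbp in place of -0.26, and -0.20 for Cxcl12 in place of -0.35, with adjusted p between 0.493 and 0.548. These ligands too were highest in Ctrl 1 and lowest in ZA 3, as were Itga2b, the platelet integrin subunit (12.8 and 7.99 FPKM), and Dcn. The 4 megakaryocyte markers tested all had log2 fold changes below 0. At an unadjusted limma p under 0.05, 0 of them were lower, where 4.85% of all genes were. The part of these cells' RNA in the values was not tested.

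Of 23 chemokine receptors, 8 were tested and none passed the adjusted limma test. Ccr2, the receptor for Ccl2, Ccl7 and Ccl12, was at 6.15, 5.39 and 5.26 FPKM in Ctrl 1, 2 and 3, and at 6.96, 7.04 and 6.79 FPKM in ZA 1, 2 and 3. All ZA libraries were above all Ctrl libraries, with a limma log2 fold change of 0.27 (SE 0.0537, adjusted p = 0.0948). Ccr1, the receptor for Ccl3, Ccl5, Ccl6 and Ccl9, had a mean of 4.28 ± 0.299 FPKM in Ctrl and 3.83 ± 0.140 FPKM in ZA (SD, n = 3 each, adjusted p = 0.373 from limma). Ccrl2, a receptor that binds chemerin without signalling, was at 17.5 ± 0.219 FPKM in Ctrl and 16.0 ± 0.676 FPKM in ZA (SD, n = 3 each, adjusted p = 0.232 from limma). Cxcr4, the Cxcl12 receptor, was the highest, at 90.7 ± 3.52 FPKM in Ctrl and 90.3 ± 1.91 FPKM in ZA (SD, n = 3 each, adjusted p = 0.969 from limma).

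Downstream of the receptors, none of 19 signalling genes passed adjustment. At an unadjusted limma p under 0.05, 4 were higher and 1 lower, where 7.5% and 4.85% of all genes were. After median centring 0 of the 4 higher calls were left, and 1 signalling gene was higher with quantile normalization. Gnai2, the inhibitory G protein subunit through which chemokine receptors signal, was at 439 ± 9.71 FPKM in Ctrl and 459 ± 11.7 FPKM in ZA (SD, n = 3 each, adjusted p = 0.373 from limma). Grk2, the kinase that switches activated receptors off, was at 83.0 ± 0.912 FPKM in Ctrl and 86.6 ± 0.121 FPKM in ZA (SD, n = 3 each, adjusted p = 0.304 from limma). Pik3r5, the regulatory subunit of the phosphoinositide kinase of leukocyte migration, was at 78.7 ± 0.870 FPKM in Ctrl and 82.2 ± 1.97 FPKM in ZA (SD, n = 3 each, adjusted p = 0.370 from limma). Rgs1, which ends G protein signalling, was the lower one, with 29.8 ± 2.24 FPKM in Ctrl and 26.6 ± 1.92 FPKM in ZA (SD, n = 3 each, adjusted p = 0.369 from limma). The GTPases Rac1 and Rac2, which drive the leading edge, had limma log2 fold changes of 0.0038 and 0.060 with adjusted p of 0.962 and 0.480.

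NF-kB, the transcription factor family best known for driving these chemokine genes, was read through 11 genes for subunits and inhibitors. All 11 log2 fold changes were above 0 (10 with quantile normalization) with a median of 0.094, where the median of all genes was 0.010. None passed the adjusted limma test and 6 were higher at an unadjusted p under 0.05, where 7.5% of all genes were. Nfkbie, an inhibitor that is itself an NF-kB target, was at 8.32, 8.86 and 8.64 FPKM in Ctrl 1, 2 and 3, and at 10.3, 10.1 and 10.2 FPKM in ZA 1, 2 and 3. The groups did not overlap, and the limma log2 fold change was 0.22 (SE 0.0345, adjusted p = 0.0510), just short of the threshold. Nfkbiz, a nuclear cofactor, was at 8.06 ± 0.475 FPKM in Ctrl and 9.68 ± 1.07 FPKM in ZA (SD, n = 3 each, adjusted p = 0.249 from limma). For Bcl3, another nuclear cofactor, the means were 13.4 ± 0.868 and 14.8 ± 0.313 FPKM (SD, n = 3 each, adjusted p = 0.284 from limma). Nfkbia, the classical inhibitor, Nfkb1 and Rela had limma log2 fold changes of 0.094, 0.084 and 0.031, with adjusted p of 0.301, 0.341 and 0.688.

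Genes that shorten the life of chemokine and cytokine transcripts were tested as 8 genes. None had an unadjusted limma p under 0.05, and their median log2 fold change was 0.024. Zfp36, which encodes the destabilising protein tristetraprolin, was at 66.3 ± 0.436 FPKM in Ctrl and 64.8 ± 2.49 FPKM in ZA (SD, n = 3 each, adjusted p = 0.692 from limma). Its relatives Zfp36l1 and Zfp36l2 had limma log2 fold changes of 0.041 and 0.075, with adjusted p of 0.637 and 0.447.

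Inflammatory cytokines, which the same stimuli often switch on, were low, and 5 of 10 were tested. None passed the adjusted limma test, while 1 was higher and 2 were lower at an unadjusted p under 0.05, where 7.5% and 4.85% of all genes were. Tnf, a leading macrophage cytokine, was at 5.42, 4.98 and 4.63 FPKM in Ctrl 1, 2 and 3, and at 5.90, 5.21 and 5.97 FPKM in ZA 1, 2 and 3 (limma log2 fold change 0.16, adjusted p = 0.370). Il1a was at 2.55, 2.73 and 2.36 FPKM in Ctrl 1, 2 and 3, and at 1.93, 1.83 and 1.85 FPKM in ZA 1, 2 and 3, with groups that did not overlap (limma log2 fold change -0.31, adjusted p = 0.0699). Csf1, which encodes M-CSF and is made by stromal cells, was at 6.09, 5.66 and 4.52 FPKM in Ctrl 1, 2 and 3, and at 4.42, 4.28 and 3.71 FPKM in ZA 1, 2 and 3 (limma log2 fold change -0.32, adjusted p = 0.241), and without Ctrl replicate 1 the log2 fold change was -0.24. Its highest and lowest libraries were Ctrl 1 and ZA 3, the same as for Ccl2, Ccl7, Ccl6 and Dcn. Il18 was at 2.55 ± 0.206 FPKM in Ctrl and 2.84 ± 0.0635 FPKM in ZA (SD, n = 3 each, adjusted p = 0.424 from limma).

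Genes of other cell types were mostly low. Csf3r, the granulocyte colony-stimulating factor receptor, was the highest of the neutrophil markers at 34.4 ± 0.537 FPKM in Ctrl and 34.7 ± 0.853 FPKM in ZA (SD, n = 3 each). Of the 10 neutrophil markers 6 were tested, and 3 of these were lower at an unadjusted limma p under 0.05, where 4.85% of all genes were. Their sum ranged from 66.4 to 82.3 FPKM in Ctrl and from 63.2 to 69.1 FPKM in ZA. Summed markers of T and NK cells (at most 0.794 FPKM), dendritic cells (at most 0.764 FPKM), mast cells and basophils (at most 1.53 FPKM) and B cells (at most 3.04 FPKM) stayed low in all libraries. The osteoclast markers summed to between 38.6 and 46.9 FPKM, nearly all of it from Ctsk and Acp5, and the part of these cells in the chemokine values was not tested.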

How the data were processed

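Total RNA of BMDMs was sequenced as paired-end reads of 150 bases. For each gene and library the authors deposited an FPKM value. The submitters' processing notes name the mouse build mm9, and the aligner, counter and annotation are not given in the sources used here. The labels name 2 library kits. Of 35434 deposited rows 11 kept their separators, and in the rest symbol and values ran together. These rows were split by number format and, where several readings were possible, by requiring whole fragments for a common gene length and library total, which also gave the totals. This restored 35284 rows, the 11 intact rows identically, and 150 rows of low genes were left out. Of 2000 simulated rows 1999 were restored exactly, 0 wrongly.

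The main test was limma 3.58.1 under R 4.3.3 (two-sided, trended variance prior) on log2(FPKM + 1) for the 9800 genes averaging 1 FPKM or more. Adjustment followed Benjamini-Hochberg. On simulated data with 197 genes changed among 9777 (2-fold) or 9767 (1.3-fold), 100% and 87.3% were called, with 10 and 9 unchanged genes called. With 0 genes changed among 9786, 2 were called. The simulated libraries were independent, with the same added spread for every gene, so these shares cannot be carried over to genes that vary more. Such genes included Ccl2 and Ccl7, with a Ctrl CV of 18.6% and 24.3% where the median over all genes tested was 3.54%. The alternatives are listed under the dependence on processing. Counting errors cover fragments only. The chemokines and gene lists were chosen with earlier results of these data known. Named genes are the 10 chemokines and, in each other list, the 3 with the largest moderated statistic and the 3 with the highest level, with every ligand or receptor at an unadjusted p under 0.05, and in marker lists the highest gene. A few more markers were named after their values were seen, and 1 gene under this rule is not reported here. Shared stretches were counted in GENCODE M21 transcripts, and gene order was read from RefSeq.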

Additional observations from a re-analysis of the deposited data

How the results depend on the processing

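Over all alternatives no chemokine passed the adjusted limma test, except Ccl6 in the fit with the replicate number as a block (replicate block), with an adjusted p of 0.0454. That fit called 1 chemokine and 78 genes, against 36 genes without the block, and had 4 chemokines lower at an unadjusted p under 0.05, where 6.12% of all genes were lower in the same fit. The labels do not say that equal numbers mark shared cultures, and deviations of same-numbered libraries correlated at 0.284, 0.0393 and 0.280 across genes. Each library correlated best with the library of its own number in the other group, as a hint from the data only. For Ctrl 2 the values were nearly equal, 0.0393 with ZA 2 and 0.0334 with ZA 3.

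The number of genes called was 1 without the filter on low levels, 1 without the variance trend, 20 with quantile normalization and 132 with voom on fragments. Without single libraries it lay between 0 and 25, at 1 without Ctrl replicate 1 or 2, 6 without Ctrl replicate 3, 25 without ZA replicate 1, 0 without ZA replicate 2 and 4 without ZA replicate 3. Chemokines lower at an unadjusted p under 0.05 numbered 1 without the filter and 1 without the trend, where 4.05% and 4.42% of all genes were. Without single libraries they numbered 0 to 3, where 3.71% to 5.61% of all genes were. Those higher numbered 1 without the filter (Cxcl2), where 4.82% of all genes were. Without single libraries they numbered 0 to 2, where 5.68% to 8.65% of all genes were. These were Ccl3 without Ctrl replicate 3, and Ccl5 and Ccl9 without ZA replicate 1. Groups that did not overlap were found in 2 chemokines without the filter, as in 13.1% of all genes there. Without single libraries they were found in 1 to 5, the most without ZA replicate 1, where Ccl5, Ccl6, Ccl7 and Ccl9 joined Ccl2. Without overlap were 32.5% of all genes in that setting, and 27.1% to 32.5% over the 6 settings, against 18.1% with all libraries. The log2 fold change of Ccl4 turned to 0.0053 without Ctrl replicate 3 (range without single libraries -0.15 to 0.0053), and that of Ccl5 to -0.011 without Ctrl replicate 2, -0.074 without ZA replicate 2 and -0.055 without ZA replicate 3 (range -0.074 to 0.26). Ccl2, Ccl3, Ccl6, Ccl7, Ccl9 and Ccl12 kept their direction under every alternative in which they were fitted. Cxcl1 and Cxcl2 were fitted only without the filter on low levels. No single library was left out for them, so whether their direction holds was not tested. The cause of these changes was not tested.

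As a ratio of mean FPKM, chosen after seeing the data, the log2 change of Cxcl2 was 0.66 in place of 0.31, since the pseudocount of 1 is as large as the levels. Ccl12, Cxcl1 and Cxcl2 rest on 12 to 59 fragments per library, and no detection limit was measured at these levels.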
